A study of Mus musculus with 12 samples.

Results

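Mouse R1 embryonic stem cells carrying a Set knockdown, the line KD1, were profiled as growing stem cells and after 4 days of retinoic acid differentiation, and the differentiation program of this line is described here. It rests on 4 of the 12 arrays of the series, chosen by their labels: 2 arrays of RA KD1 and 2 arrays of ESC KD1, compared across 19938 annotated genes with 1 probe set per gene. RA cells were grown for 4 days with 1 µM retinoic acid in medium with 10% serum and no leukemia inhibitory factor (LIF). ESC cells were growing stem cells kept in 15% serum with 1000 U/ml LIF and no retinoic acid. All cells were R1 cells on gelatin without any stated feeder layer, and KD1 cells of both states carried the Set knockdown. RA KD1 and ESC KD1 thus differ in retinoic acid, serum and LIF together, and these cannot be told apart. The series holds the same 2 states for a scrambled control and for a second knockdown line, KD2. The labels call knockdown and control cells clones, so KD1 is 1 line and its scrambled control another. Line and knockdown cannot be told apart. The titles call the arrays of a group biological replicates without naming separate cultures, so p-values measure the spread between these arrays, which may be technical.

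Retinoic acid is made from vitamin A and binds nuclear receptors (RARs paired with RXRs) that sit on DNA and switch on genes once the ligand is bound. Stem cells held by LIF express a network of pluripotency factors, and withdrawal of LIF with retinoic acid makes cultured stem cells leave that state. Depending on serum, density and dose they take on neural, mesodermal or extraembryonic endoderm character. Extraembryonic endoderm is the tissue that forms the yolk sac, with a visceral part that takes up nutrients and a parietal part that lays down a thick basement membrane. SET is a nuclear histone chaperone and an inhibitor of the phosphatase PP2A.

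Every value below is the deposited RMA value in log2 units, so that 1 unit is a doubling of signal. Array medians over all 35556 probe sets lay between 7.17 and 7.24. The arrays of a KD1 group correlated at 0.9975 in RA and 0.9945 in ESC across genes. For KD2, the second array of each state resembled the opposite state. The one labelled ESC had a mean r of 0.9864 to arrays of the RA state and 0.9517 to arrays of its own, and the one labelled RA a mean r of 0.9862 to the ESC state and 0.9518 to its own. Neither entered the fit used here, which held the 8 KD1 and scrambled arrays. Set itself was read by probe set 10470893, which also matches the predicted gene BC085271, at 11.28 and 11.16 in RA KD1 and at 12.13 and 11.94 in ESC KD1. The RA scrambled arrays read 12.27 and 12.29, and the ESC scrambled arrays 12.93 and 12.71. No KD1 array reached a scrambled array of its state. Signal in KD1 stood at 48.1% of scrambled in RA (limma, adjusted p = 0.000247) and at 58.2% in ESC (adjusted p = 0.00513). Within KD1, RA minus ESC was -0.81 log2 units (SE 0.09, adjusted p = 0.000188). The dimmer probe sets that match Set alone, 10470905 and 10470907, read 107% and 118% of scrambled in RA and 66.2% and 80.4% in ESC, without a call between lines in either state.

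Marker genes followed the labels. All 7 stem cell markers fell in RA KD1, and all 6 measured markers of retinoic acid treated cells rose. Octamer factor Pou5f1 read 9.67 and 9.50 in RA, against 12.97 and 12.92 in ESC (log2 change -3.36, SE 0.24, adjusted p = 9.14e-06). Sox2, its DNA-binding partner, read 10.10 and 9.53 in RA, against 12.79 and 12.86 in ESC, and Nanog read 9.56 and 8.69 in RA, against 12.70 and 12.72 in ESC. All 3 still read above 7.85 in both RA arrays. This is the median of all values, taken over the 19938 genes and the 8 fitted arrays. Of the markers of other cell types, all 8 for extraembryonic endoderm rose, and their mean per array lay between 11.88 and 11.94 in RA, against 8.02 to 8.14 in ESC. Of 5 measured neural markers 1 rose and 2 fell, with array means of 7.26 to 7.28 in RA and 7.22 to 7.25 in ESC. Of 6 fibroblast markers 5 rose and 1 fell, at 7.38 to 7.64 in RA and 7.29 to 7.30 in ESC. Of 4 blood markers 1 rose and 2 fell, and of 4 trophoblast markers 1 rose. In bulk RNA, fewer cells of a type and less RNA per cell cannot be told apart.

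The program was broad. Between RA KD1 and ESC KD1, 4041 genes rose (20.3% of all genes) and 4142 fell (20.8%) by limma at a Benjamini-Hochberg adjusted p below 0.05. The large changes were mostly rises. At 4-fold or more, 470 genes rose (2.36%) and 185 fell (0.928%), and at 16-fold or more 44 rose (0.221%) and 15 fell (0.0752%). Of the 470 strong rises, 319 (67.9%) read under the median of all values in ESC KD1, and 3 did so in RA KD1. Of the 185 strong falls, 3 read under it in ESC KD1 and 120 (64.9%) in RA KD1. The median change over all genes was -0.08. Centring the arrays on their medians over the 19938 genes moved the median change to -0.20 and the counts to 3422 rises and 6333 falls. Then 35.1% of calls were rises, against 49.4% as deposited. Leaving out RA KD1 replicate 1 reduced the falls to 2600.

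**Figure D1:**
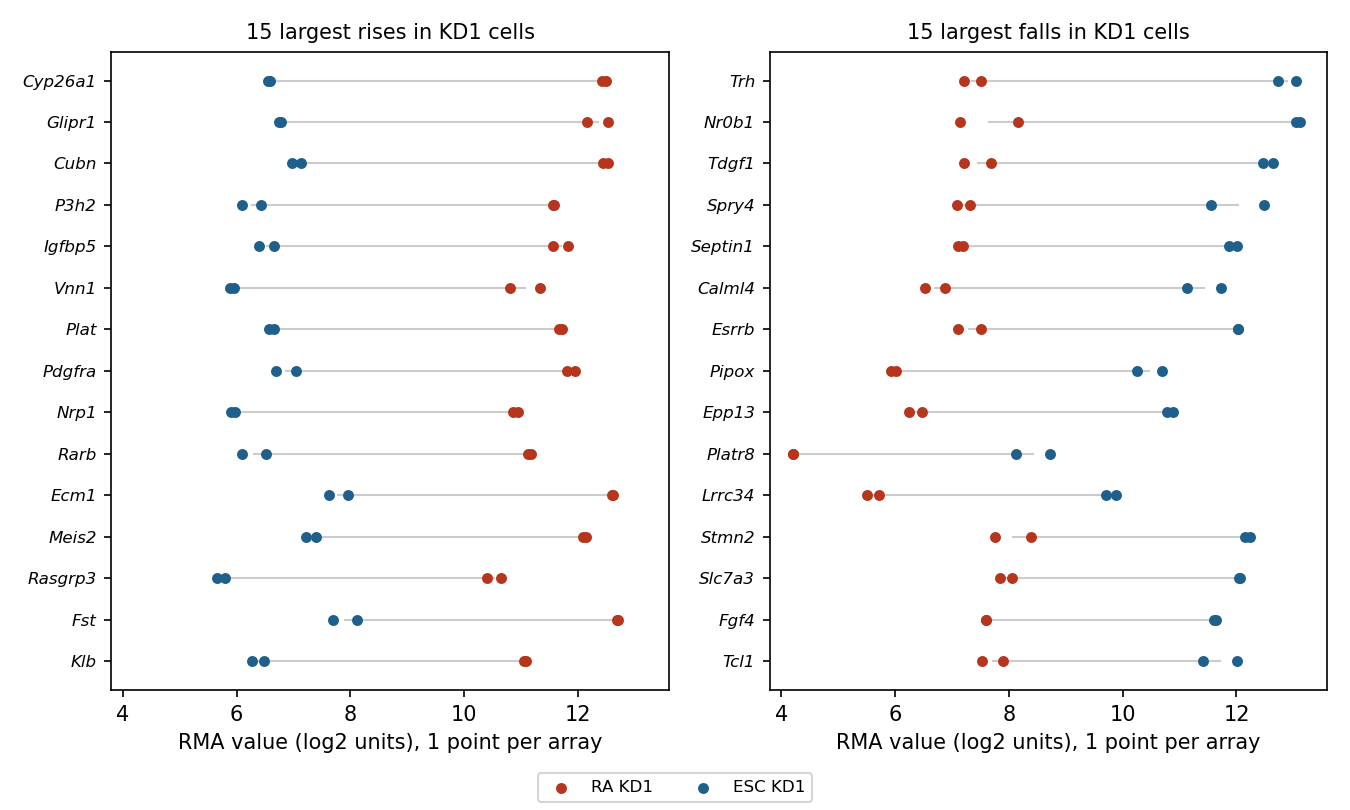
The 15 largest rises (left) and falls (right) in KD1 cells; each point is 1 array, RA KD1 in red and ESC KD1 in blue, on the x axis of RMA values in log2 units. The choice of these 30 genes required arrays of the 2 states that do not overlap. Cyp26a1 leads the rises at 5.89 and Trh the falls at -5.53.

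The steepest fall was that of Trh, the gene of thyrotropin-releasing hormone, which read 7.5 and 7.21 in the RA KD1 arrays, against 12.72 and 13.05 in the ESC KD1 arrays (log2 change -5.53, SE 0.17, adjusted p = 1.61e-07). Next came pluripotency genes. Nr0b1, a nuclear receptor of the stem cell network, read 8.17 and 7.14 in RA, against 13.05 and 13.11 in ESC (log2 change -5.42, SE 0.34, adjusted p = 4.3e-06). Tdgf1, the Nodal coreceptor Cripto, read 7.69 and 7.22 in RA, against 12.46 and 12.65 in ESC (log2 change -5.10, SE 0.37, adjusted p = 9.31e-06). For these 3 genes no RA array came within 4 units of an ESC array. Esrrb, an orphan receptor of the same network, read 7.5 and 7.11 in RA, against 12.02 and 12.02 in ESC (log2 change -4.72, SE 0.25, adjusted p = 2.23e-06). Fgf4, the growth factor by which stem cells signal to themselves, read 7.60 and 7.60 in RA, against 11.64 and 11.61 in ESC (log2 change -4.02, SE 0.14, adjusted p = 2.6e-07). Tcl1, an Akt cofactor, read 7.90 and 7.53 in RA, against 11.41 and 12 in ESC (log2 change -3.99, SE 0.26, adjusted p = 5.88e-06). Of 31 measured pluripotency genes 28 fell and 0 rose, with a median change of -2.89, and 21 fell at least 4-fold. Over all genes 20.8% fell and 20.3% rose. The list medians per array were 9.04 and 8.72 in RA, against 11.64 and 12 in ESC. Tbx3, which also serves in endoderm and limb, was not called, at 11.45 and 11.58 in RA, against 11.49 and 11.79 in ESC (change -0.13, adjusted p = 0.428). Klf4 was not called either, at 10.45 and 10.56 in RA, against 10.82 and 10.94 in ESC (adjusted p = 0.0523).

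Genes of the formative and primed states, the stages that follow naive pluripotency, fell as well: 12 of 17 fell and 1 rose, with a median of -2.20. Otx2, a homeobox factor of that transition and of the forebrain, read 6.63 and 6.58 in RA, against 9.81 and 11.34 in ESC (log2 change -3.97, SE 0.42, adjusted p = 9.34e-05). The Nodal antagonists Lefty1 and Lefty2 fell by 3.94 and 3.86 on the log2 scale (adjusted p = 2.78e-06 and 9.66e-06). Etv5 and Foxd3, a factor downstream of FGF and a forkhead factor, changed by -3.81 and -3.40. Fgf5, the usual marker of the primed state, was not called, at 7.94 and 7.95 in RA, against 7.88 and 7.97 in ESC. The LIF pathway split. Of 16 genes 7 rose and 7 fell (43.8% each way), while 20.3% of all genes rose and 20.8% fell. Spry4, which damps FGF signalling, read 7.31 and 7.09 in RA, against 11.55 and 12.49 in ESC (log2 change -4.82, SE 0.32, adjusted p = 6.27e-06). Socs2, a feedback inhibitor of cytokine signalling, read 9.49 and 9.37 in RA, against 12.32 and 12.32 in ESC (log2 change -2.89, SE 0.12, adjusted p = 7.04e-07). The kinase Jak2 went the other way at 9.65 and 9.59 in RA, against 6.59 and 7.08 in ESC (log2 change 2.79, SE 0.28, adjusted p = 5.99e-05), and so did the cytokine receptor Osmr with 1.95 (SE 0.10, adjusted p = 2.05e-06). The receptor Lifr read 12.02 and 12.19 in RA, against 10.40 and 10.63 in ESC (log2 change 1.59, SE 0.13, adjusted p = 1.84e-05). Stat3, the transcription factor of the pathway, changed by 0.23 and was not called.

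Of 31 measured genes of retinoid metabolism and retinoic acid targets, 20 rose and 5 fell, with a median change of 1.59, and 15 rose at least 4-fold. Cyp26a1 (GRCm38.p6, chromosome 19, 37697738 to 37701536), the cytochrome that degrades retinoic acid, read 12.43 and 12.49 in the RA KD1 arrays, against 6.58 and 6.56 in the ESC KD1 arrays (log2 change 5.89, SE 0.18, adjusted p = 1.61e-07). It was the largest rise of all 19938 genes. Rarb (GRCm38.p6, chromosome 14, 16430839 to 17082331), the retinoic acid receptor beta, read 11.11 and 11.17 in the RA KD1 arrays, against 6.51 and 6.10 in the ESC KD1 arrays (log2 change 4.84, SE 0.16, adjusted p = 1.75e-07). Both are textbook targets that a receptor pair switches on through direct repeats near their start sites. The RefSeq promoter windows (build GRCm38.p6, 250 bases before and 50 after each start) were searched for such a repeat: a half-site of 5 letters, GGTCA or GTTCA, then any 6 letters and a half-site again, on both strands. Of the 31 list members 22 had a window and 2 held the motif, Rarb and Cyp26a1. Of all 32851 windows, 81 held it (0.247%). The 250 bases before each start are shown because they are the windows of the list that hold the repeat, and both genes are among the 15 largest rises; the motif stands in capitals.
Rarb, chr14:16575477-16575726, minus strand: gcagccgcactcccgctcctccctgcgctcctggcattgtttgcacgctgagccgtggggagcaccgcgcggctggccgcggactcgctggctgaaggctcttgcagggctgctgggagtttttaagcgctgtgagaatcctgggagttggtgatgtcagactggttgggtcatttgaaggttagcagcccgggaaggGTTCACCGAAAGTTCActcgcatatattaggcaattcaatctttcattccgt
Cyp26a1, chr19:37697558-37697807, plus strand: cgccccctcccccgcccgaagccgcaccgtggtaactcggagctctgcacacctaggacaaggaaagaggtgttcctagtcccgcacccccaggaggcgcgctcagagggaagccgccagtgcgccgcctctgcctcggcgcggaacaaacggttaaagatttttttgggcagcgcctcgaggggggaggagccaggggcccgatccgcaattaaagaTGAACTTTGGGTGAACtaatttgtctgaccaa
Each window ends at the start of the transcript that the RefSeq table uses. For Rarb that start lies inside the outer bounds of the gene given above, and for Cyp26a1 it lies just inside them. In Rarb the motif lies 52 to 37 bases before the start and reads along the gene's strand. In Cyp26a1 it lies 32 to 17 bases before the start and reads on the opposite strand. A match of letters is a description. Of the 32 measured genes whose windows held the motif, 4 rose and 7 fell (20.3% and 20.8% of all genes did), and 2, Rarb and Cyp26a1, rose at least 4-fold.

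Other retinoid genes are given by role, and those outside the naming rule (Dhrs3, Rdh10, Crabp1, Crabp2, Rarg) were chosen after their values were seen. Stra6, the cell surface receptor that imports retinol, read 11.63 and 11.44 in RA, against 7.76 and 7.26 in ESC (log2 change 4.03, SE 0.17, adjusted p = 5.83e-07). Dhrs3, which turns retinal back into retinol, read 11.33 and 11.50 in RA, against 7.66 and 7.29 in ESC, and Rdh10, which works in the opposite direction, read 11.19 and 11.19 in RA, against 8.37 and 8.18 in ESC; both rose (log2 3.94 and 2.91). Cyp26b1, a relative of Cyp26a1, read 9.43 and 9.55 in RA, against 7.39 and 7.37 in ESC (log2 change 2.11, SE 0.15, adjusted p = 9.27e-06). The 2 cellular binding proteins diverged: Crabp2, which hands retinoic acid to the receptors, changed by 2.99, and Crabp1 by -1.15. The receptor Rarg, abundant in stem cells, changed by -1.10. The homeobox cofactors of Hox proteins rose together. Meis2 read 12.09 and 12.15 in RA, against 7.40 and 7.23 in ESC (log2 change 4.81, SE 0.25, adjusted p = 1.94e-06) and Meis1 read 10.95 and 11.05 in RA, against 6.44 and 6.68 in ESC (log2 change 4.44, SE 0.15, adjusted p = 2.46e-07). Nr2f2, the orphan receptor COUP-TFII, read 10.99 and 10.98 in RA, against 6.70 and 6.52 in ESC (log2 change 4.37, SE 0.16, adjusted p = 3.44e-07). No array of either state overlapped the other for Stra6, Meis1, Meis2 or Nr2f2, which were named as a marker or for large changes. How many of all genes lack overlap is not given here. Aldh1a3, an enzyme that makes retinoic acid, was not called, at 6.96 and 7.2 in RA, against 7.14 and 7.14 in ESC.

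Hox genes, which give cells their position along the body axis and lie in 4 clusters, rose in 23 of 37 measured members and fell in 0 (20 and 3 with the arrays centred on their medians). The median change was 0.57, and of all genes 20.3% rose and 20.8% fell. By group mean, 14 of the 37 read above 7.85, the median of all values, in RA KD1 and 1 in ESC KD1. Some calls are thus of dim genes, such as Hoxa9 and Hoxc10, which stayed under it in every KD1 array. Hoxa5 read 10.46 and 10.39 in the RA KD1 arrays, against 6.34 and 6.29 in the ESC KD1 arrays (log2 change 4.11, SE 0.13, adjusted p = 1.78e-07). Hoxc5 read 9.93 and 9.37 in RA, against 6.62 and 5.87 in ESC, Hoxc8 10.18 and 9.99 in RA, against 6.86 and 6.88 in ESC, and Hoxb2 10.10 and 9.63 in RA, against 6.72 and 6.79 in ESC. Hoxa3 was dimmer, at 8.12 and 8.30 in RA, against 5.92 and 5.91 in ESC. RA arrays lay above ESC arrays for all 5 of these genes, by 2.29 to 4.11 in the fit. The 5 were named for the largest changes of the list, and the share of all genes without overlap is not given here. By paralogue group, numbered from the 3′ end of a cluster, 11 of 14 genes of paralogue groups 1 to 5 rose (median 1.73), 8 of 11 of groups 6 to 9 (median 0.66) and 4 of 12 of groups 10 to 13 (median -0.04). By cluster, 8 of 10 genes rose in A, 7 of 9 in B, 6 of 9 in C and 2 of 9 in D. Hoxb1, the first gene of cluster B, read 9.15 and 9.20 in RA, against 7.5 and 7.45 in ESC (log2 change 1.70, SE 0.12, adjusted p = 7.17e-06). Hoxa11 was not called, at 5.26 and 5.54 in RA, against 5.28 and 5.53 in ESC.

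**Figure D2:**
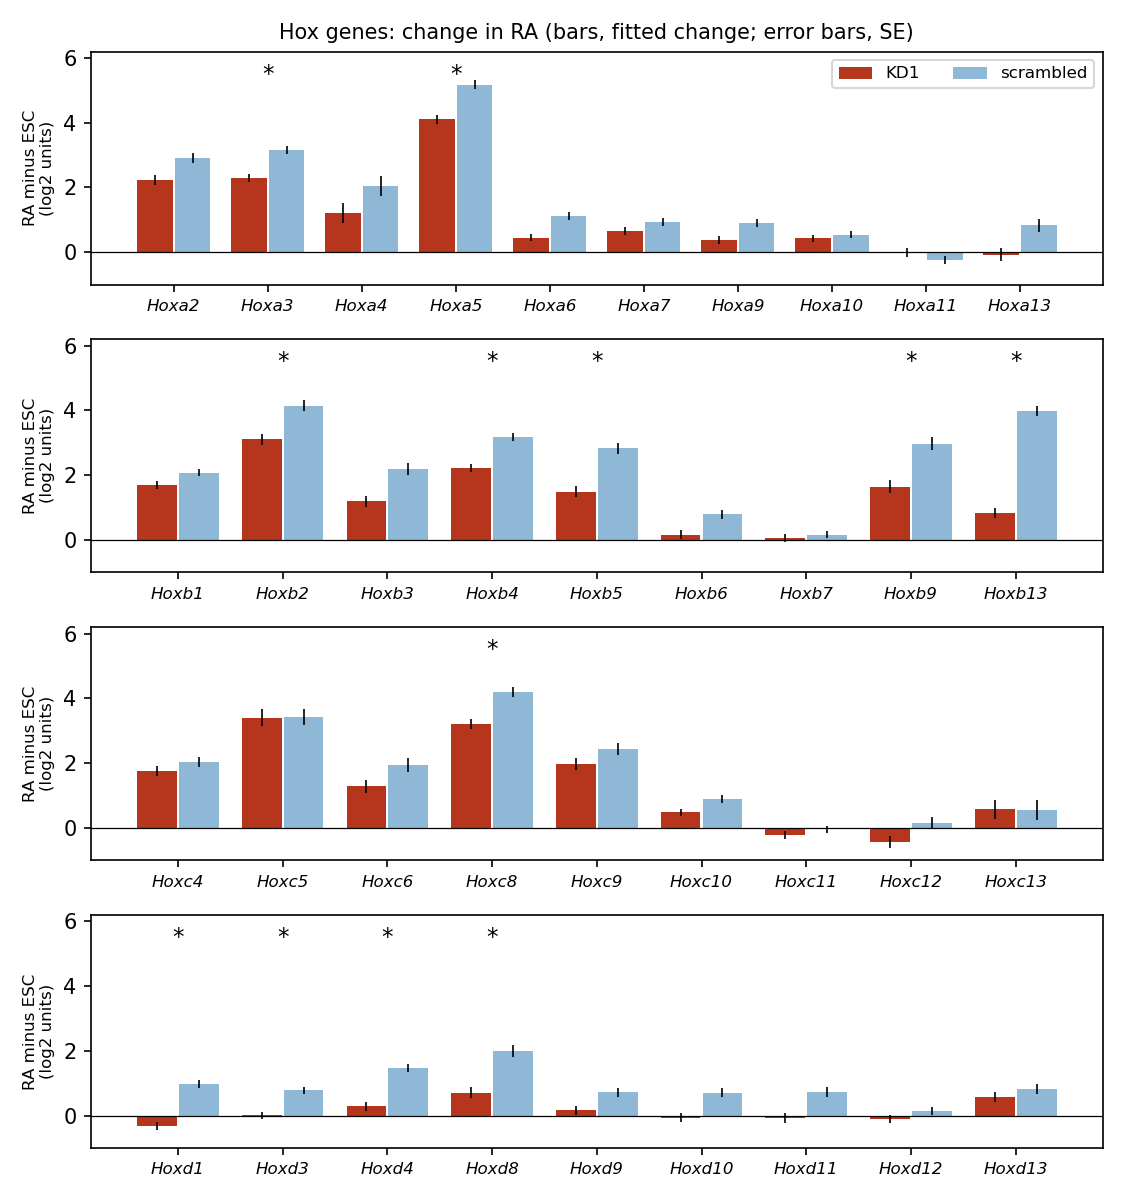
Change of each measured Hox gene, RA minus ESC in log2 units on the y axis, with 1 panel per cluster and genes in order of paralogue number; red bars are KD1, pale blue bars scrambled, error bars the SE of the fit, and stars mark a called difference between the lines. In KD1 7 of 9 genes rose in cluster B and 2 of 9 in cluster D, and all 12 stars sit over genes with the lower bar in KD1.

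Transcription factors of extraembryonic endoderm rose strongly. Of 12 measured 9 rose and 1 fell, with a median of 2.31 (8 rose and 2 fell under either other scaling). Among all genes 20.3% rose and 20.8% fell. Gata6 and Gata4, zinc finger factors that set up this lineage, both rose. Gata6 read 12.53 and 12.55 in the RA KD1 arrays, against 8.11 and 8.12 in the ESC KD1 arrays (log2 change 4.43, SE 0.11, adjusted p = 9.45e-08). Gata4 (GRCm38.p6, chromosome 14, 63198914 to 63271712) read 12.34 and 12.35 in the RA KD1 arrays, against 7.90 and 7.96 in the ESC KD1 arrays (log2 change 4.42, SE 0.14, adjusted p = 1.61e-07). Sox17, an endoderm factor, read 9.57 and 9.65 in RA, against 7.12 and 6.86 in ESC, and Sox7, its close relative in parietal endoderm, read 11.47 and 11.59 in RA, against 8.46 and 8.29 in ESC (log2 change 3.15, SE 0.15, adjusted p = 9.96e-07). The forkhead factor Foxa2 read 10.49 and 10.41 in RA, against 7.55 and 7.26 in ESC (log2 change 3.05). Its relative Foxq1 read 11.63 and 11.63 in RA, against 7.88 and 7.62 in ESC (log2 change 3.88). Within each of these 6 genes the lowest RA array stood at least 2 units above the highest ESC array. All but Sox17, a marker, were named for the largest changes of the list. How many of all genes show such a gap is not given here. Hhex, a homeobox factor of anterior endoderm, was not called, at 7.68 and 7.38 in RA, against 7.54 and 7.24 in ESC.

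Visceral endoderm genes rose in part. Of 22 measured genes of nutrient uptake and transport 9 rose, 2 fell and 11 were not called (8 rose and 5 fell with centred arrays). Among all genes 20.3% rose and 20.8% fell. The endocytic receptors rose. Cubn, the receptor cubilin (GRCm38.p6, chromosome 2, 13276338 to 13491876), read 12.43 and 12.53 in the RA KD1 arrays, against 7.12 and 6.98 in the ESC KD1 arrays (log2 change 5.43, SE 0.13, adjusted p = 9.45e-08). Its partner Lrp2, megalin, read 11.01 and 11.05 in RA, against 8.67 and 8.12 in ESC (log2 change 2.64, SE 0.23, adjusted p = 3.16e-05), and the clathrin adaptor Dab2 read 12.88 and 12.97 in RA, against 8.48 and 8.33 in ESC (log2 change 4.52, SE 0.11, adjusted p = 9.45e-08). Rbp4, which carries retinol in serum, read 10.47 and 10.44 in RA, against 7.18 and 7.58 in ESC, and the zinc transporter Slc39a8 read 9.94 and 9.98 in RA, against 6.97 and 6.84 in ESC; both changed by about 3 (3.07 and 3.05). Secreted products of mature visceral endoderm differed among themselves. Apoa1 was not called, at 7.44 and 7.38 in RA, against 7.52 and 7.23 in ESC. Afp, the fetal albumin, was not called either, at 6.27 and 6.34 in RA, against 5.94 and 6.18 in ESC, while Ttr, a thyroid hormone carrier, rose by 2.27 and Apoe changed by -2.20; these last 3 genes were chosen after their values were seen.

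Parietal endoderm and basement membrane genes rose almost without exception. Of 20 measured genes 19 rose and 0 fell, beside 20.3% and 20.8% of all genes. The median was 3.40, and 13 rose at least 4-fold. List medians per array were 12.06 and 12.12 in RA, against 9.53 and 9.80 in ESC. Plat, tissue plasminogen activator, read 11.66 and 11.72 in the RA KD1 arrays, against 6.66 and 6.57 in the ESC KD1 arrays (log2 change 5.08, SE 0.13, adjusted p = 9.45e-08). Pdgfra, the growth factor receptor of primitive endoderm, read 11.81 and 11.94 in RA, against 6.69 and 7.05 in ESC (log2 change 5, SE 0.22, adjusted p = 9.05e-07). Fst, the activin antagonist follistatin, read 12.70 and 12.69 in RA, against 7.70 and 8.12 in ESC (log2 change 4.78, SE 0.15, adjusted p = 1.61e-07). Pth1r, the parathyroid hormone receptor of parietal endoderm, read 11.85 and 11.97 in RA, against 7.70 and 7.35 in ESC (log2 change 4.38, SE 0.16, adjusted p = 3.43e-07). The matrix itself followed: the collagen IV chain Col4a2 read 11.71 and 11.65 in RA, against 7.82 and 7.68 in ESC (log2 change 3.93, SE 0.14, adjusted p = 2.6e-07) and the laminin chain Lama1 read 13.34 and 13.44 in RA, against 10.35 and 10.35 in ESC (log2 change 3.04, SE 0.11, adjusted p = 2.6e-07). Lamb1 and Col4a1, partners of these chains and chosen after their values were seen, rose by 3.69 and 3.72. P4ha2, which hydroxylates collagen, read 11.39 and 11.34 in RA, against 7.31 and 7.78 in ESC (log2 change 3.82, SE 0.25, adjusted p = 5.48e-06). The laminin chain Lama5, already high in stem cells, was the exception at 10.67 and 10.51 in RA, against 10.30 and 10.43 in ESC (not called).

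**Figure D3:**
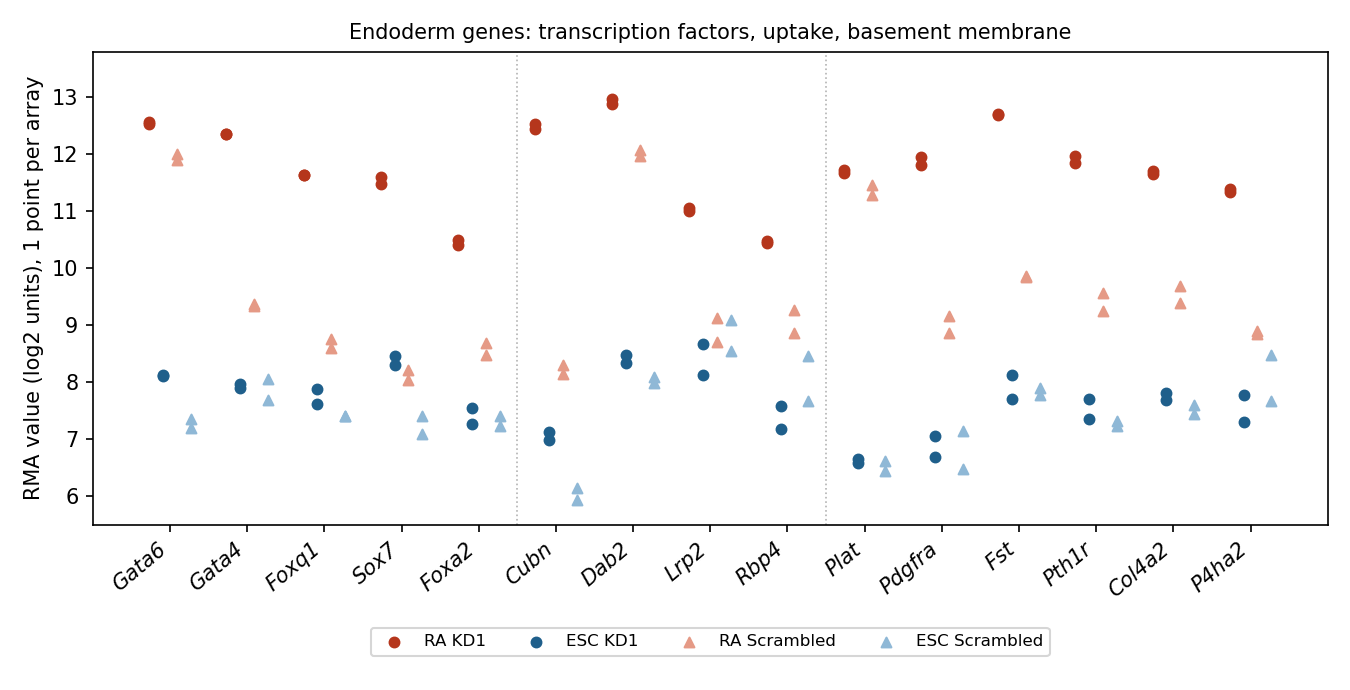
RMA values (y axis, log2 units, 1 point per array) of 15 endoderm genes on the x axis. Dotted lines separate transcription factors, uptake genes and genes of the parietal endoderm and basement membrane list. Circles are KD1 and triangles scrambled, red and pale red RA, blue and pale blue ESC. RA KD1 arrays lie above all other arrays for each gene shown, by a wide margin except for Gata6, Dab2 and Plat, where RA scrambled arrays come close.

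Mesoderm factors rose more modestly. Of 28 measured, 17 rose (60.7%) and 5 fell (17.9%), beside 20.3% and 20.8% of all genes, with a median of 0.59. Foxf1, a forkhead factor of lateral mesoderm, read 11.45 and 11.84 in the RA KD1 arrays, against 7.70 and 8.07 in the ESC KD1 arrays (log2 change 3.76, SE 0.17, adjusted p = 9.59e-07). Osr1, a factor of intermediate mesoderm, read 10.24 and 10.06 in RA, against 7.30 and 7.02 in ESC (log2 change 2.99, SE 0.24, adjusted p = 1.62e-05), and Foxc2 read 9.11 and 8.38 in RA, against 6.32 and 6.26 in ESC (log2 change 2.46, SE 0.22, adjusted p = 3.1e-05). Tcf15 went down, at 7.95 and 7.77 in RA, against 10.28 and 10.14 in ESC (log2 change -2.35, SE 0.19, adjusted p = 1.69e-05). Nkx2-5, the cardiac homeobox factor, was not called, at 8.31 and 8.42 in RA, against 8.37 and 8.34 in ESC. Genes of the mesenchymal transition rose in 17 of 23 and fell in 1, with a median of 1.31. Nrp1, a semaphorin and VEGF coreceptor, read 10.94 and 10.86 in RA, against 5.98 and 5.90 in ESC (log2 change 4.96, SE 0.14, adjusted p = 1.48e-07). N-cadherin, Cdh2, read 10.84 and 10.47 in RA, against 7.31 and 6.74 in ESC, and the cadherin Cdh11 read 9.67 and 8.83 in RA, against 5.84 and 6.40 in ESC. Tgfb2, a TGF-beta ligand, changed by 3.54 (SE 0.16, adjusted p = 9.59e-07). Zeb2, a repressor of E-cadherin, changed by 2.31 (SE 0.14, adjusted p = 3.31e-06).

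Contractile and matrix genes were part of the same program. Of 16 smooth muscle genes 13 rose and 1 fell, beside 20.3% and 20.8% of all genes, with a median of 1.27. Acta2, smooth muscle actin, read 13.05 and 12.99 in RA, against 9.50 and 8.48 in ESC (log2 change 4.03, SE 0.29, adjusted p = 1.01e-05). Its light chain partner Myl9 read 11.74 and 11.57 in RA, against 8.44 and 8.58 in ESC, Cnn1, calponin, read 11.30 and 11.09 in RA, against 8.41 and 7.97 in ESC, and Tagln, transgelin, read 12.25 and 12.11 in RA, against 9.52 and 9.13 in ESC. The RA arrays of these 4 genes lay above 11 and the ESC arrays below 10. They were named for the largest changes of the list, and how many of all genes lack overlap is not given here. Of 24 fibroblast matrix genes 14 rose and 1 fell, with a median of 0.58. Dcn, the proteoglycan decorin, read 10.72 and 10.58 in RA, against 6.22 and 6.06 in ESC (log2 change 4.51, SE 0.14, adjusted p = 1.61e-07), and the protease inhibitors Timp2 and Timp3 changed by 4.09 and 3.68. Tnc and Fbn2, tenascin C and fibrillin 2, each changed by 3.30. Collagen genes that mark fibroblasts rose by small steps: Col1a1 read 9.56 and 9.21 in RA, against 8.77 and 8.64 in ESC (log2 change 0.68), and Col3a1 read 8.38 and 8.19 in RA, against 7.65 and 7.73 in ESC, a call that was lost without ESC KD1 replicate 1 or RA KD1 replicate 1 (limma, adjusted p = 0.0696 and 0.103). Thy1 fell, at 7.37 and 6.95 in RA, against 9.75 and 9.61 in ESC (log2 change -2.52). The 6 fibroblast markers averaged 7.38 to 7.64 in RA and 7.29 to 7.30 in ESC arrays, and their part in the matrix results was not tested. Of 11 heart muscle genes 3 rose and 3 fell, near the 20.3% and 20.8% of all genes. Actc1, the cardiac actin, read 10.51 and 10.46 in RA, against 8.35 and 7.99 in ESC (log2 change 2.32, SE 0.28, adjusted p = 0.000202).

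Of 20 trophoblast genes 12 rose (60%) and 4 fell (20%), beside 20.3% and 20.8% of all genes, with a median of 0.74. Gata3, a factor of trophoblast and other tissues, read 11.17 and 11.47 in the RA KD1 arrays, against 7.18 and 7.74 in the ESC KD1 arrays (log2 change 3.86, SE 0.20, adjusted p = 2.06e-06). The keratin Krt18, also an endoderm gene, read 13.18 and 13.14 in RA, against 10.91 and 10.73 in ESC (log2 change 2.33, SE 0.15, adjusted p = 4.51e-06). Tfap2c, shared by trophoblast and germ cells, fell, at 7.08 and 7.43 in RA, against 10.14 and 10.54 in ESC (log2 change -3.09, SE 0.29, adjusted p = 4.69e-05). The defining factors Cdx2, Elf5 and Hand1 were not called. Elf5 read 6.10 and 6.22 in RA, against 6.18 and 6.15 in ESC. Epithelial genes fell more often than they rose, 10 against 7 of 24 (41.7% against 29.2%). Krt17, a keratin, read 6.99 and 7.04 in RA, against 10.67 and 11.03 in ESC (log2 change -3.84, SE 0.21, adjusted p = 2.52e-06), and the epithelial factor Grhl2 read 6.95 and 6.79 in RA, against 9.86 and 9.40 in ESC (log2 change -2.76, SE 0.19, adjusted p = 7.21e-06). Rab25 changed by -2.41 and Grhl3 by -1.84. F11r, a tight junction protein, rose, at 12.19 and 12.17 in RA, against 10.73 and 10.62 in ESC.

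Neural genes changed about as often as genes did overall. Of 31 measured 7 rose, 7 fell and 17 were not called, near the 20.3% and 20.8% of all genes, with a median of 0.11 (6 and 8 with centred arrays). Stmn2, a microtubule regulator that is also high in stem cells, read 8.40 and 7.76 in RA, against 12.24 and 12.15 in ESC (log2 change -4.12, SE 0.19, adjusted p = 1.02e-06). Nes, the intermediate filament nestin, read 9.97 and 9.66 in RA, against 8.52 and 7.91 in ESC (log2 change 1.61, SE 0.25, adjusted p = 0.0009). Irx3 changed by 1.63 (SE 0.15, adjusted p = 3.43e-05). Pax6, the neural and eye factor, read 8.32 and 8.11 in RA, against 6.80 and 7.44 in ESC (log2 change 1.10, SE 0.24, adjusted p = 0.0052). Sox1, the first factor of the neural plate, fell slightly, at 8.02 and 8.11 in RA, against 8.57 and 8.54 in ESC (log2 change -0.49, SE 0.12, adjusted p = 0.0116). The neuronal tubulin Tubb3 was not called, at 7.82 and 7.90 in RA, against 8.32 and 7.81 in ESC, nor was the neuronal gene Dcx, at 5.48 and 5.38 in RA, against 5.19 and 5.15 in ESC. Of 14 endothelial genes 3 rose and 3 fell (3 and 5 with centred arrays), also near the share over all genes. Flt1, a VEGF receptor, read 10.85 and 10.91 in RA, against 7.33 and 7.2 in ESC (log2 change 3.61, SE 0.12, adjusted p = 2.23e-07). Pecam1, also a stem cell surface gene, fell by 2.81 on the log2 scale. Of 15 blood genes 3 rose (20%) and 6 fell (40%), beside 20.3% and 20.8% of all genes. Runx1, a factor of blood and other lineages, read 10.40 and 10.42 in RA, against 7.88 and 7.65 in ESC (log2 change 2.65, SE 0.16, adjusted p = 4.33e-06). Hbb-bh1, an embryonic globin, was not called, at 4.42 and 4.52 in RA, against 4.37 and 4.47 in ESC.

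Ligands and antagonists of the main growth factor pathways changed in both directions. Over all genes 20.3% rose and 20.8% fell. Of 17 BMP genes 10 rose and 2 fell (8 rose under either other scaling). Bmp2 read 10.44 and 10.57 in the RA KD1 arrays, against 6.07 and 6.49 in the ESC KD1 arrays (log2 change 4.22, SE 0.16, adjusted p = 3.59e-07). Bmp4, its close relative and abundant in stem cells, moved the other way, at 11.01 and 11.23 in RA, against 12.10 and 12.26 in ESC (log2 change -1.06, SE 0.15, adjusted p = 0.000583). Msx2, a homeobox target of BMP, read 9.29 and 9.33 in RA, against 7.07 and 6.77 in ESC (log2 change 2.39, SE 0.15, adjusted p = 4.95e-06). Noggin, Nog, an antagonist that binds BMPs, read 8.80 and 8.56 in RA, against 7.42 and 7.40 in ESC (log2 change 1.27, SE 0.12, adjusted p = 5.13e-05). Of 25 Wnt genes 13 rose and 4 fell (12 and 7 with centred arrays). The Wnt antagonist Dkk1 read 10.42 and 10.76 in RA, against 7.81 and 8.04 in ESC (log2 change 2.66, SE 0.16, adjusted p = 3.98e-06), and the Wnt enhancer Rspo3 read 8.81 and 8.47 in RA, against 6.25 and 6.38 in ESC (log2 change 2.32, SE 0.14, adjusted p = 3.45e-06).

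Of 15 IGF genes 9 rose and 1 fell, beside 20.3% and 20.8% of all genes, with a median of 1.07. Igfbp5, an IGF binding protein, read 11.57 and 11.82 in RA, against 6.39 and 6.66 in ESC (log2 change 5.17, SE 0.29, adjusted p = 2.62e-06). The ligand Igf2 read 12.94 and 12.86 in RA, against 9.68 and 9.27 in ESC (log2 change 3.43, SE 0.23, adjusted p = 6.72e-06), the receptor Igf1r 10.78 and 10.64 in RA, against 8.84 and 8.93 in ESC, and the adaptor Irs1 10.15 and 10.04 in RA, against 6.89 and 6.70 in ESC. Ligand, receptor and adaptor were all higher in both RA arrays. They were named for the largest changes of the list, and the share of all genes without overlap is not given here. FGF genes split, with 6 of 18 up and 7 down. Klb, beta-Klotho, the coreceptor of endocrine FGFs (GRCm38.p6, chromosome 5, 65348411 to 65386957), read 11.10 and 11.05 in RA, against 6.48 and 6.28 in ESC (log2 change 4.69, SE 0.12, adjusted p = 9.45e-08). Its partner receptor Fgfr4 read 9.66 and 9.47 in RA, against 7.26 and 7.39 in ESC (log2 change 2.24, SE 0.17, adjusted p = 1.37e-05), and the ligand Fgf10 read 9.43 and 9.85 in RA, against 6.91 and 6.64 in ESC (log2 change 2.87, SE 0.17, adjusted p = 3.32e-06). Fgf17 fell by 2.12 on the log2 scale, beside Fgf4 and Spry4 above.

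Genes of growth and division fell by small steps. Over all genes 20.8% fell and 20.3% rose. Of 32 S phase genes 25 fell and 1 rose, with a median of -0.70, and none of the 32 changed 4-fold. Gins1 and Mcm10, which load and run the replication helicase, read 9.21 and 9.03 in RA, against 10.65 and 10.44 in ESC and 9.86 and 9.82 in RA, against 11.31 and 11.11 in ESC. The polymerase subunit Pola1 read 8.95 and 8.91 in RA, against 10.22 and 10.27 in ESC (log2 change -1.32, SE 0.12, adjusted p = 4.25e-05). Of 29 mitotic genes 22 fell and 0 rose, with a median of -0.47; the checkpoint kinase Bub1b read 10.68 and 10.52 in RA, against 11.65 and 11.50 in ESC (log2 change -0.98, SE 0.10, adjusted p = 6.34e-05). Of 26 genes of ribosome biogenesis and Myc 22 fell and 0 rose, with a median of -0.63. Dkc1, the pseudouridine synthase dyskerin, read 10.53 and 10.52 in RA, against 12 and 11.95 in ESC (log2 change -1.45, SE 0.11, adjusted p = 1.56e-05), and Myc read 10.74 and 10.93 in RA, against 11.96 and 11.83 in ESC (log2 change -1.06, SE 0.22, adjusted p = 0.00469). Of 11 CDK inhibitors, pocket proteins and D cyclins 5 rose (45.5%) and 2 fell (18.2%), with a median of 0.68. The share that fell lay near that of all genes. Among the inhibitors, which brake the cycle, Cdkn2a changed by 1.67 (SE 0.13, adjusted p = 1.22e-05), Cdkn2b by 1.64 (SE 0.21, adjusted p = 0.000265) and Cdkn1c by 1.08 (SE 0.18, adjusted p = 0.00132). The D cyclins moved apart. Ccnd2 read 12.09 and 12.12 in RA, against 9.65 and 8.28 in ESC (log2 change 3.14, SE 0.63, adjusted p = 0.00364), and Ccnd1 read 10.35 and 9.95 in RA, against 11.85 and 11.13 in ESC (log2 change -1.34, SE 0.35, adjusted p = 0.014). The call of Ccnd1 was lost without ESC KD1 replicate 1 or RA KD1 replicate 2 (limma, adjusted p = 0.0991 and 0.096). Of 18 p53 targets 10 rose and 0 fell, with a median of 0.52. After a further quantile normalization 7 rose, and with centred arrays 8. The kinase Plk2 led at 1.52. The calls of Btg2 and Eda2r did not hold in every fit that left out 1 array. Without ESC KD1 replicate 1 their changes were 0.70 and 0.36, and without RA KD1 replicate 1 they were 1.25 and 0.85.

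Metabolic genes fell more often than they rose, while 20.8% of all genes fell and 20.3% rose. Of 27 genes of glycolysis and the hypoxia response 9 fell (33.3%) and 5 rose (18.5%), and 12 and 4 with centred arrays. Pfkp, a phosphofructokinase, read 8.41 and 8.61 in RA, against 11.21 and 11.76 in ESC (log2 change -2.98, SE 0.25, adjusted p = 2.26e-05), and Pdk1, which shuts the entry of pyruvate into mitochondria, read 9.04 and 8.96 in RA, against 11.52 and 11.70 in ESC (log2 change -2.61, SE 0.15, adjusted p = 3.14e-06). Car12, a surface carbonic anhydrase, rose, at 10.09 and 10.10 in RA, against 7.38 and 8.07 in ESC (log2 change 2.37, SE 0.25, adjusted p = 9.23e-05). Of 21 cholesterol genes 14 fell and 3 rose; Idi1, of the isoprenoid pathway, read 9.24 and 8.86 in RA, against 10.89 and 10.95 in ESC (log2 change -1.87, SE 0.17, adjusted p = 3.08e-05). Of 19 genes of amino acid synthesis and the ATF4 response 11 fell and 3 rose. Cth, which makes cysteine, read 8.80 and 8.78 in RA, against 11.17 and 11.22 in ESC (log2 change -2.41, SE 0.15, adjusted p = 4e-06), while the stress factor Atf3 read 11.43 and 11.84 in RA, against 8.31 and 8.31 in ESC (log2 change 3.33, SE 0.25, adjusted p = 1.26e-05).

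Chromatin genes moved in both directions, while 20.3% of all genes rose and 20.8% fell. Of 15 genes that write or erase DNA methylation 9 fell and 3 rose. Dnmt3l, a cofactor of the methyltransferases, read 10.19 and 10.31 in RA, against 12.36 and 12.57 in ESC (log2 change -2.21, SE 0.18, adjusted p = 1.94e-05). The dioxygenases that oxidise methylated cytosine split: Tet1 read 10.55 and 10.32 in RA, against 12.60 and 12.46 in ESC and Tet2 9.08 and 8.94 in RA, against 10.72 and 10.81 in ESC, while Tet3 read 10.17 and 9.88 in RA, against 7.96 and 7.96 in ESC. Of 26 Polycomb subunits 9 rose and 8 fell (8 and 10 with centred arrays). Bmi1 read 9.17 and 9.26 in RA, against 6.80 and 7.26 in ESC (log2 change 2.19, SE 0.18, adjusted p = 2.2e-05), and Phc1 read 10.05 and 9.87 in RA, against 11.90 and 11.92 in ESC (log2 change -1.95, SE 0.11, adjusted p = 2.76e-06). Of 29 SET partners and histone chaperones 5 rose (17.2%) and 10 fell (34.5%), and 4 and 12 with centred arrays. The PP2A subunit Ppp2r2b read 8.20 and 8.10 in RA, against 6.09 and 5.91 in ESC (log2 change 2.15, SE 0.11, adjusted p = 2.03e-06). Imprinted genes, expressed from 1 parental copy, rose in 17 of 25 and fell in 3, and 8 rose at least 4-fold. Dlk1 read 12.60 and 12.53 in RA, against 8.79 and 8.20 in ESC (log2 change 4.07, SE 0.28, adjusted p = 7.17e-06), and the zinc finger gene Zim1 read 10.56 and 10.75 in RA, against 6.30 and 6.46 in ESC (log2 change 4.28, SE 0.14, adjusted p = 2.23e-07). Dcn and Igf2, given above, are imprinted too.

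**Figure D4:**
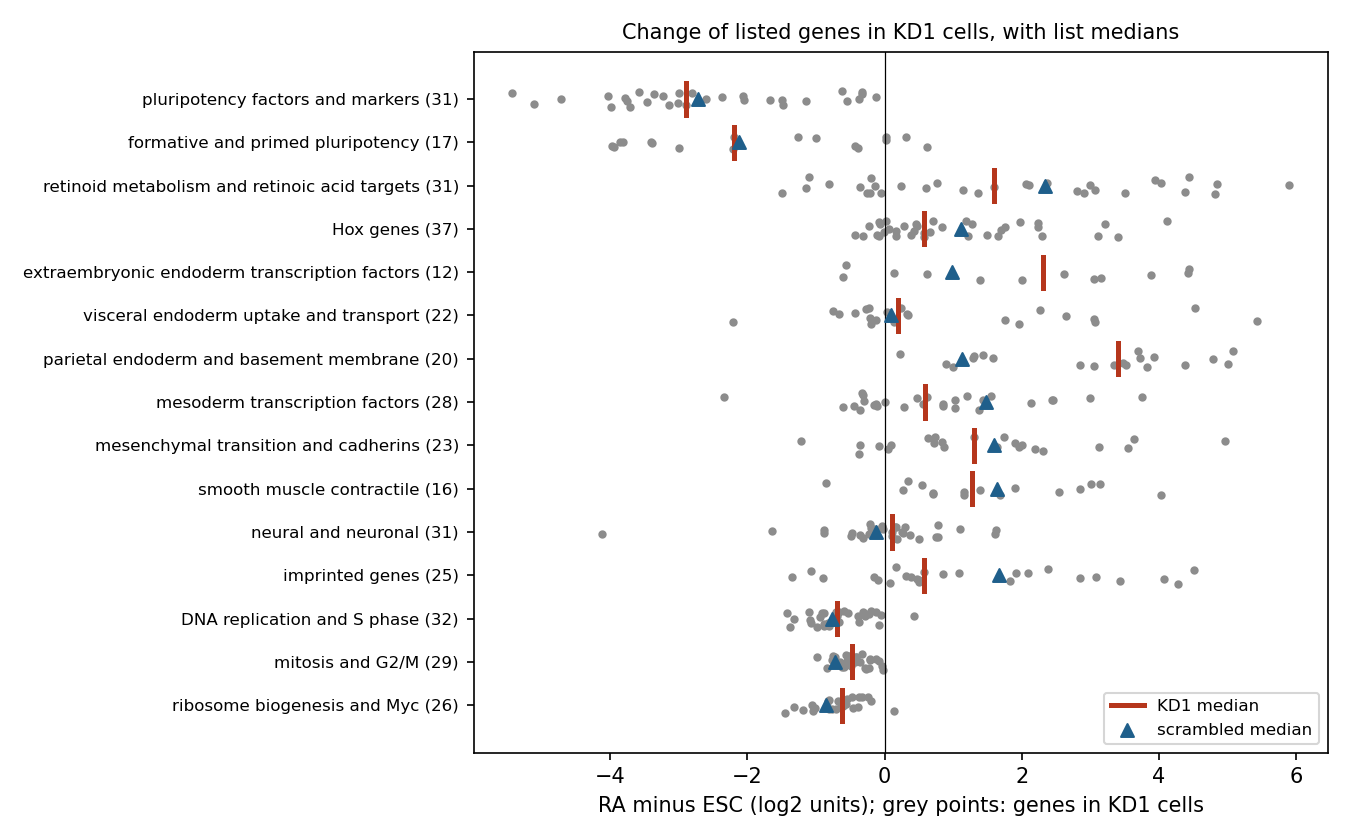
Change of each measured member of 15 gene lists in KD1 cells, RA minus ESC in log2 units on the x axis, 1 grey point per gene, with the number measured in brackets; red bars are list medians in KD1 and blue triangles list medians in scrambled cells. Pluripotency lies at -2.89 and the parietal endoderm and basement membrane list at 3.40 in KD1. The largest gaps between bar and triangle are those of the parietal endoderm and basement membrane list and the endoderm factors.

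Several of the largest changes fell outside the lists. Glipr1, a secreted protein of the CAP family, read 12.15 and 12.54 in the RA KD1 arrays, against 6.78 and 6.75 in the ESC KD1 arrays (log2 change 5.58, SE 0.17, adjusted p = 1.61e-07). P3h2, a collagen prolyl hydroxylase, read 11.58 and 11.56 in RA, against 6.43 and 6.10 in ESC (log2 change 5.31, SE 0.17, adjusted p = 1.61e-07). Vnn1, a surface enzyme that releases pantothenate, read 10.80 and 11.33 in RA, against 5.96 and 5.88 in ESC (log2 change 5.15, SE 0.22, adjusted p = 6.64e-07). Ecm1, a matrix protein, and Rasgrp3, an activator of Ras, rose by 4.82 and 4.80. Among falls, the septin gene Septin1 read 7.19 and 7.11 in RA, against 11.86 and 12 in ESC (log2 change -4.78, SE 0.15, adjusted p = 1.75e-07), and Pipox, which oxidises pipecolic acid, read 5.94 and 6.02 in RA, against 10.25 and 10.69 in ESC (log2 change -4.49, SE 0.22, adjusted p = 1.4e-06). Slc7a3, an arginine transporter, read 7.84 and 8.06 in RA, against 12.07 and 12.05 in ESC. Calml4, Epp13, Lrrc34 and the long noncoding RNA Platr8 changed by -4.72, -4.48, -4.17 and -4.21.

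The same contrast in scrambled cells shows what was common. There 4336 genes rose (21.7%) and 4149 fell (20.8%). Changes in KD1 and scrambled cells correlated at r = 0.854 across genes, which are not independent replicates. Called in both lines were 6228 genes, 6157 of them in the same direction, or 75.2% of the KD1 calls and 72.6% of the scrambled calls. The difference of the 2 responses was tested directly. It was higher in KD1 for 505 genes (2.53%) and lower for 456 (2.29%), with 3504 genes at an unadjusted p below 0.05. Centring the arrays gave 636 and 367, so that 63.4% of calls were higher, against 52.5% as deposited. Single arrays weighed on these counts: without RA KD1 replicate 1 or 2 they were 238 and 190, or 192 and 111, and without ESC KD1 replicate 1 or 2 they were 316 and 227, or 353 and 252. Without RA scrambled replicate 1 they were 274 and 207. All 108 genes chosen by rule for a called difference kept its direction whichever single array was left out, and some lost the call. They were chosen for calls in these same arrays, which made a kept direction likely.

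**Figure D5:**
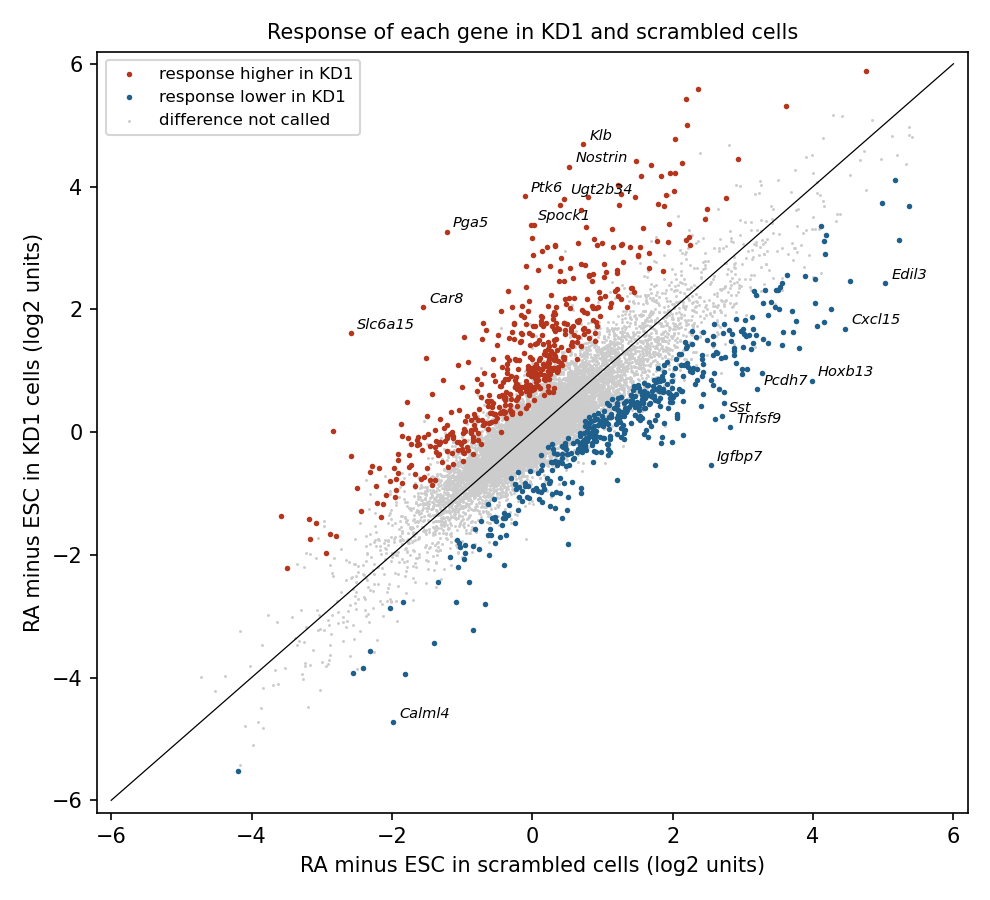
Change of each of 19938 genes, RA minus ESC in log2 units, in KD1 cells (y axis) against scrambled cells (x axis), with the line of equal change; red and blue points have a called difference that is higher or lower in KD1, and grey points none. The 16 labelled genes have the largest differences each way, from 4.48 for Pga5 to -3.14 for Hoxb13.

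Many genes of the parietal endoderm and basement membrane list, and some other endoderm genes, responded more in KD1 cells. Of 12 transcription factors 6 had a higher response and 1 a lower one. Of 20 genes of parietal endoderm and basement membrane, which include receptors and secreted factors, 14 had a higher one and 0 a lower one. Of 22 uptake genes 6 had a higher one and 0 a lower one. Over all genes the shares were 2.53% and 2.29%. Lists here and below were chosen with earlier results of these data known, which bears on these counts. The other 16 uptake genes were not called, and the list's median change was 0.19 in KD1 and 0.09 in scrambled cells. The median of the parietal endoderm and basement membrane list was 3.40 in KD1, against 1.13 in scrambled cells. Gata4 in scrambled cells read 9.33 and 9.37 in RA scrambled arrays, against 8.05 and 7.69 in ESC scrambled arrays, so its change was 4.42 in KD1 cells and 1.48 in scrambled cells (difference 2.94, SE 0.20, adjusted p = 0.000187). Gata6 changed by 4.43 in KD1 cells and 4.67 in scrambled cells, a difference of -0.24 (SE 0.16) that was not called (adjusted p = 0.48). Sox7 changed by 3.15 in KD1 cells and 0.88 in scrambled cells (difference 2.28, SE 0.21, adjusted p = 0.000739), Foxa2 by 3.05 in KD1 cells and 1.26 in scrambled cells (difference 1.79, SE 0.21, adjusted p = 0.00208) and Foxq1 by 3.88 in KD1 cells and 1.26 in scrambled cells (difference 2.62, SE 0.19, adjusted p = 0.000224). Cubn changed by 5.43 in KD1 cells and 2.19 in scrambled cells (difference 3.24, SE 0.19, adjusted p = 0.000107), Lrp2 by 2.64 in KD1 cells and 0.09 in scrambled cells (difference 2.55, SE 0.33, adjusted p = 0.0036). Rbp4 and Slc39a8 differed by 2.08 and 2.13. On the parietal endoderm and basement membrane list P4ha2 changed by 3.82 in KD1 cells and 0.80 in scrambled cells (difference 3.03, SE 0.35, adjusted p = 0.00216). Pdgfra changed by 5 in KD1 cells and 2.20 in scrambled cells (difference 2.81, SE 0.32, adjusted p = 0.00188). Fst changed by 4.78 in KD1 cells and 2.03 in scrambled cells (difference 2.75, SE 0.21, adjusted p = 0.000302). Pth1r and Col4a2 differed by 2.25 and 1.91. In ESC, the 8 endoderm markers averaged 8.02 to 8.14 in KD1 arrays and 7.46 to 7.52 in scrambled arrays, and the part of this starting difference in the responses was not tested.

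Hox, retinoid and mesoderm genes leaned the other way. Of 37 Hox genes 12 had a lower response in KD1 and 0 a higher one, beside 2.29% and 2.53% of all genes. The counts were 10 and 0 with centred arrays, and 9 and 0 after a further quantile normalization. Median changes were 0.57 in KD1 and 1.12 in scrambled cells. Of the 12, Hoxd1, Hoxd3 and Hoxd4 were dim, under 7.85, the median of all values, in all 8 fitted arrays. Hoxb13 read 7.02 and 6.92 in RA, against 6.19 and 6.07 in ESC in KD1, while in scrambled cells it read 10.29 and 9.86 in RA scrambled arrays, against 5.95 and 6.23 in ESC scrambled arrays. Its change was 0.84 in KD1 cells and 3.98 in scrambled cells (difference -3.14, SE 0.23, adjusted p = 0.000251). Hoxb5 and Hoxb9 differed by -1.34 and -1.33, and Hoxa5, Hoxb2, Hoxc8 and Hoxa3 by -1.06, -1.04, -0.97 and -0.86. The calls of these last 6 genes were each lost without at least 1 array, while that of Hoxb13 held whichever single array was left out. Of 31 retinoid genes 1 differed higher and 5 lower. Cyp26a1 rose more in KD1, by 5.89 in KD1 cells and 4.75 in scrambled cells (difference 1.14, SE 0.26, adjusted p = 0.0414), while Cyp26b1 rose less (difference -1.18, SE 0.21, adjusted p = 0.017), and Lrat, which stores retinol as esters, was called in scrambled cells but not in KD1 (difference -1.26, SE 0.24, adjusted p = 0.0219). All 3 of these calls were lost without at least 1 array. Of 28 mesoderm factors 9 responded less and 0 more. Tbx18 changed by 1.38 in KD1 cells and 3.81 in scrambled cells (difference -2.43, SE 0.27, adjusted p = 0.00179), and Foxc2 and Isl1 differed by -2.07 and -2.03. Cdh11, Tgfb3, Zeb2, Postn and Col3a1 also responded less (differences of -2.09, -1.45, -1.01, -1.95 and -1.10), whereas Snai1 and Timp3 responded more (differences of 1.60 and 1.80). No S phase, mitotic or ribosome biogenesis gene of the lists had a called difference, while under another scaling 1 mitotic and 1 ribosome biogenesis gene had.

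Pluripotency genes fell in both lines, with medians of -2.89 in KD1 and -2.72 in scrambled cells. Of the 31, 5 were called as falling less in KD1 and 0 as falling more. Among all genes the response was higher in KD1 for 2.53% and lower for 2.29%. The median difference of the list was -0.195, on the side of a further fall in KD1. Differences without a call lay on both sides: -1.32 for Nanog, -1.13 for Tdgf1 and -0.80 for Esrrb, but 0.64 for Dppa5a and 0.38 for Zfp42. Fbxo15 changed by -1.48 in KD1 cells and -3.08 in scrambled cells (difference 1.60, SE 0.38, adjusted p = 0.0493), Klf4 by -0.37 in KD1 cells and -1.76 in scrambled cells (difference 1.39, SE 0.19, adjusted p = 0.00463) and Dppa3 by -1.67 in KD1 cells and -2.89 in scrambled cells (difference 1.22, SE 0.26, adjusted p = 0.0333). Of these 3 calls, that of Klf4 held whichever single array was left out. Dnmt3l differed by 1.29 and Lefty1 by -2.12. Trh fell further in KD1 (difference -1.34, SE 0.23, adjusted p = 0.0142), as did Krt17 (difference -1.43, SE 0.30, adjusted p = 0.0303), and the splicing factor gene Esrp1 fell less (difference 1.67, SE 0.21, adjusted p = 0.00309). The fall of Esrp1 within KD1 lost its call without ESC KD1 replicate 1 (limma, adjusted p = 0.0548).

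Among the largest differences were genes that moved in KD1 and little in scrambled cells. Klb changed by 4.69 in KD1 cells and 0.73 in scrambled cells (difference 3.97, SE 0.17, adjusted p = 2.05e-05), Ptk6, a tyrosine kinase of epithelia, by 3.84 in KD1 cells and -0.11 in scrambled cells (difference 3.95, SE 0.17, adjusted p = 2.05e-05), and Nostrin, a trafficking adaptor of nitric oxide synthase, by 4.32 in KD1 cells and 0.52 in scrambled cells (difference 3.8, SE 0.29, adjusted p = 0.000302). Spock1, a proteoglycan, changed by 3.38 in KD1 cells and -0.02 in scrambled cells (difference 3.40, SE 0.17, adjusted p = 5.17e-05), and Ugt2b34, a glucuronosyltransferase, by 3.8 in KD1 cells and 0.45 in scrambled cells (difference 3.36, SE 0.27, adjusted p = 0.000387). Called in opposite directions were 71 genes, 48 of them up in KD1 and down in scrambled cells. The pepsinogen gene Pga5 read 11.56 and 11.63 in RA, against 7.83 and 8.83 in ESC, and in scrambled cells 6.87 and 7.51 in RA scrambled arrays, against 8.02 and 8.80 in ESC scrambled arrays (difference 4.48, SE 0.50, adjusted p = 0.00179). The amino acid transporter Slc6a15 changed by 1.61 in KD1 cells and -2.59 in scrambled cells (difference 4.20, SE 0.37, adjusted p = 0.000731), the carbonic anhydrase relative Car8 by 2.04 in KD1 cells and -1.56 in scrambled cells (difference 3.60, SE 0.31, adjusted p = 0.000635) and the hypoxia factor Epas1 by 1.21 in KD1 cells and -1.52 in scrambled cells (difference 2.72, SE 0.34, adjusted p = 0.00309). Insig1, a sensor of sterols, and Bmp4 also took opposite directions, with differences of 2.06 and -1.57. Genes that rose mainly in scrambled cells were Igfbp7, an IGF binding protein, at -0.54 in KD1 cells and 2.54 in scrambled cells (difference -3.08, SE 0.40, adjusted p = 0.00349), the TNF family ligand Tnfsf9 (difference -2.74, SE 0.33, adjusted p = 0.00265) and somatostatin, Sst (difference -2.45, SE 0.25, adjusted p = 0.00124). The chemokine Cxcl15, the integrin ligand Edil3 and the protocadherin Pcdh7 rose in both, but less in KD1, with differences of -2.77, -2.59 and -2.50. Calml4 fell in both and further in KD1 (difference -2.74, SE 0.37, adjusted p = 0.00433).

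Signalling genes differed in both directions as well. Bmp2, Bmp6 and Nog responded more in KD1 (differences of 2.26, 1.10 and 1.10), and Bmp5 less, with a difference of -1.42. Sfrp1, Dkk2 and Wnt5a responded less (differences of -2.28, -1.95 and -1.24). Fgfr4, Fgf10, Flt1 and Runx1 responded more (differences of 1.98, 1.36, 2.91 and 1.44). Lifr changed by 1.59 in KD1 cells and -0.15 in scrambled cells (difference 1.74, SE 0.18, adjusted p = 0.00137) and the ligand Lif differed by 1.10, while the receptor subunit Cntfr and the cofactor Bcl3 differed by -2.08 and -1.10. Igf1 and Gata2 responded less (differences of -1.13 and -1.55). Of 27 glycolysis and hypoxia genes 8 responded more and 1 less, beside 2.53% and 2.29% of all genes. Car12 and Pfkl differed by 2.45 and 1.80. Atf3 and P3h2 differed by 1.75 and 1.70, and Glipr1 by 3.22.

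The second knockdown line gives 1 array per state whose label its profile matched, KD2 replicate 1, and so values without a test. RA minus ESC in these 2 arrays correlated at 0.835 with the KD1 change across genes. For genes of parietal endoderm and basement membrane its median was 1.39, against 3.40 in KD1 and 1.13 in scrambled cells. For endoderm transcription factors it was 1.03, against 2.31 in KD1 and 0.98 in scrambled cells, and for Hox genes 1.03, against 0.57 in KD1 and 1.12 in scrambled cells. Other medians lay closer to KD1: for retinoid genes it was 1.74, against 1.59 in KD1 and 2.34 in scrambled cells, and for mesoderm factors 0.90, against 0.59 in KD1 and 1.47 in scrambled cells. Gata4, chosen with the next genes after their values were seen, changed by 1.71 in KD2, Cubn by 2.18, Klb by 1.26, Lama1 by 1.74 and Hoxb13 by 1.33. Cubn read 10.66 in the RA array of KD2, against 8.15 and 8.30 in RA scrambled arrays. In the ESC array of KD2 it read 8.48, against 6.14 and 5.93 in ESC scrambled arrays. Dab2 read 9.88 there, against 8.08 and 7.98. Of the endoderm markers, only Foxa2 (7.35) did not read above both ESC scrambled arrays. The part of this starting level in the KD2 changes was not tested. With 1 array per state, no order of the 3 lines was tested.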

How the data were processed

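The values are on the log2 scale, deposited after processing with RMA, a method that corrects background, quantile normalizes and summarizes probes, as named in the submitters' processing notes; its version and settings are not given in the sources used here. Of 35556 probe sets 23410 had annotation, 21789 with 1 gene symbol and 1621 with several, which were left out. For each of the 19938 genes the probe set with the highest mean over the 12 arrays was used. The 8 KD1 and scrambled arrays were fitted with limma 3.58.1 in R 4.3.3 (4 groups, moderated with an intensity trend), giving RA against ESC in each line and the difference of these responses; Benjamini-Hochberg adjustment ran over all genes, with calls at 0.05. Genes named were the 15 largest calls each way in KD1, the 8 largest of the difference, and up to 5 and 3 called members per list, beside marker genes and least changed members. Members and lists were chosen with earlier results of these data known. The fit was tested on simulated data. Other samples, scalings, filters, probe set choices and moderation were tried, each array was left out in turn, and replicate numbers were tried as a block. Promoter sequences came from RefSeq (GRCm38.p6). Arrays give no read depth, and their number limits the precision.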

Additional observations from a re-analysis of the deposited data

Results flagged for a closer look

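What stands out is that the response to RA differed between the KD1 and scrambled lines, by a test of the difference of the 2 responses in limma. It was higher in KD1 for 505 genes and lower for 456. The values that follow are the KD1 response minus the scrambled response in log2 units, for genes named in the text. Among the largest were Pga5 (4.48), Slc6a15 (4.20), Klb (3.97), Ptk6 (3.95), Nostrin (3.8), Car8 (3.60), Spock1 (3.40) and Ugt2b34 (3.36) on the higher side. On the lower side were Hoxb13 (-3.14), Igfbp7 (-3.08), Cxcl15 (-2.77), Calml4 (-2.74), Tnfsf9 (-2.74), Edil3 (-2.59), Pcdh7 (-2.50) and Sst (-2.45).

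Some endoderm and basement membrane genes were higher: Cubn (3.24), P4ha2 (3.03), Gata4 (2.94), Pdgfra (2.81), Fst (2.75), Foxq1 (2.62), Lrp2 (2.55), Sox7 (2.28), Pth1r (2.25), Slc39a8 (2.13), Rbp4 (2.08), Col4a2 (1.91) and Foxa2 (1.79). Hox genes were lower: Hoxb5 (-1.34), Hoxb9 (-1.33), Hoxa5 (-1.06), Hoxb2 (-1.04), Hoxc8 (-0.97) and Hoxa3 (-0.86). Retinoid genes, with 1 call higher and 5 lower, included Cyp26a1 (1.14), Cyp26b1 (-1.18) and Lrat (-1.26). Pluripotency genes with a call were higher: Fbxo15 (1.60), Klf4 (1.39) and Dppa3 (1.22). Genes of the formative and primed states split: Dnmt3l (1.29) and Lefty1 (-2.12). Trh, outside the lists, was lower (-1.34). Mesoderm, mesenchyme and matrix genes were mostly lower: Tbx18 (-2.43), Foxc2 (-2.07), Isl1 (-2.03), Cdh11 (-2.09), Tgfb3 (-1.45), Zeb2 (-1.01), Postn (-1.95), Col3a1 (-1.10), Timp3 (1.80) and Snai1 (1.60). Signalling genes split: Bmp2 (2.26), Bmp6 (1.10), Nog (1.10), Bmp5 (-1.42), Bmp4 (-1.57), Sfrp1 (-2.28), Dkk2 (-1.95), Wnt5a (-1.24), Fgfr4 (1.98), Fgf10 (1.36), Igf1 (-1.13), Lifr (1.74), Lif (1.10), Cntfr (-2.08) and Bcl3 (-1.10). Other genes were: Gata2 (-1.55), Glipr1 (3.22), P3h2 (1.70), Flt1 (2.91), Runx1 (1.44), Epas1 (2.72), Car12 (2.45), Pfkl (1.80), Insig1 (2.06), Atf3 (1.75), Krt17 (-1.43) and Esrp1 (1.67).

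The spread between arrays bears on these calls. Of the 81 genes above, 50 kept the call whichever single array was left out, and 31 lost it without at least 1 array: Atf3, Bcl3, Bmp5, Cdh11, Cntfr, Col3a1, Cyp26a1, Cyp26b1, Dnmt3l, Dppa3, Fbxo15, Fgf10, Gata2, Hoxa3, Hoxa5, Hoxb2, Hoxb5, Hoxb9, Hoxc8, Igf1, Krt17, Lefty1, Lif, Lrat, Rbp4, Runx1, Tgfb3, Timp3, Trh, Wnt5a and Zeb2. No explanation was tested.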

How the results depend on the processing

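The 235 genes named by rule with a call in KD1 and the 108 with a called difference kept their direction under every setting in which they were fitted. Their choice by calls in these same arrays made this likely. The filter on dim genes held 228 and 101 of them, and the fit of the 4 KD1 arrays alone has no scrambled arrays to compare. With all 12 arrays, which adds the displaced KD2 arrays to the estimate of spread, 1400 genes were higher and 849 lower in KD1. Counts were 1622 and 1129 in scrambled cells, and 41 and 11 in the difference. Probe set 10470893 of Set between KD1 and scrambled cells in ESC (-0.78) was no longer called. Of the named genes, 127 of the 235 and 8 of the 108 remained called. Centring on array medians gave 6333 genes lower in KD1 and 7443 in scrambled cells. Replicate numbers did not pair the arrays across states: differences between replicates correlated at 0.068 between RA KD1 and ESC KD1, against 0.633 between ESC KD1 and ESC scrambled. With the replicate block, the counts in KD1 were 4280 and 4405, and 642 and 605 in the difference. A replicate block within each state gave 1433 and 1441 in the difference. Leaving out 1 array gave 2950 to 4299 genes higher and 2600 to 4439 lower in KD1, 3317 to 4289 and 2977 to 4075 in scrambled cells, and 192 to 670 and 111 to 486 in the difference. Lowest in the difference was the fit without RA KD1 replicate 2, and in KD1 that without RA KD1 replicate 1. With 2 arrays a group, a single remaining array takes its spread from the rest. Array number limits the precision; the median SE of a KD1 change was 0.12.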

Other observations

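Chromosomes differed in the share of genes that changed in KD1. On the X chromosome 26.4% of 739 genes rose and 15.6% fell, against 20.3% and 20.8% of all genes. Chromosome 3 was close to X, with 26.1% up and 17.8% down, and on chromosome 7, 14.2% rose. No test was made between chromosomes. The response on X was higher in KD1 than in scrambled cells for 34 of its 739 genes and lower for 13, beside 2.53% and 2.29% of all genes. Of 24 interferon response genes, which defend cells against virus, 8 rose and 8 fell in KD1, and of 21 germline genes 4 rose and 7 fell, beside 20.3% and 20.8% of all genes. Neither list was tested against all genes.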
